A study of Mus musculus with 9 samples.

Results

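The 8 tetraspanins Cd63, Cd9, Cd37, Cd53, Cd81, Cd82, Tspan3 and Tspan13 were described together with Tmem176a and Tmem176b in Mac1+ bone marrow cells of 3 genotypes. They are 10 of 23420 gene symbols in the deposited RPKM table (reads per kilobase of transcript, scaled by a denominator set for each library). All 10 were among the 10868 genes with at least 1 RPKM in at least 2 libraries. The genes were chosen by symbol after their levels in these libraries were known. Their own differences between genotypes are therefore given as a description. Whether a member was past a threshold is taken from the fit over all genes. Neither these calls nor their counts are evidence about the group.

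Every animal group carried homozygous floxed alleles of Ezh2 and of Runx1 (fl/fl) on the C57BL/6 strain. The WT group (n = 3) carried nothing else, so its floxed genes had no recombinase. The ITD group (n = 2) had in addition a Flt3 internal tandem duplication on a single allele (ITD/+), a mutation that leaves this receptor kinase active. The DKOITD group (n = 4) had that allele and Rag1Cre, a recombinase driven from the Rag1 locus, which is active in early lymphoid progenitors. The sources used here do not say how many Mac1+ cells had ever made Cre, how old the mice were or whether each library came from its own mouse, so errors below measure the spread between libraries. Each library came from 100 sorted cells positive for Mac1, the integrin of granulocytes and monocytes.

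Tetraspanins are small proteins that cross the membrane several times and gather integrins, immune receptors and proteases into membrane domains. Cd63 cycles between late endosomes, lysosomes and the primary granules of neutrophils. Cd9, Cd81 and Cd82 lie mostly at the surface, and Cd37 and Cd53 are restricted to leukocytes. Tmem176a and Tmem176b are not tetraspanins but relatives of the Ms4a family with the same number of membrane passes. They are neighbours in the genome, are known from dendritic cells, and Tmem176b has been linked to ion transport in endosomes where antigen is processed.

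The stretch between the neighbouring starts of the Tmem176 pair comes first, because both genes were high in the same libraries. RefSeq (GRCm38.p6) lists 3 starts for Tmem176b and 2 for Tmem176a on chromosome 6, and the closest facing pair was taken. These are base 48841374 for Tmem176b, read on the minus strand, and base 48841483 for Tmem176a, read on the plus strand. The 108 bases between them, chr6:48841375-48841482, lie within both gene models of GENCODE vM21 and are shown on the Tmem176a strand. They are followed by the 150 bases before the starts of Tspan3 (chr9:56161071-56161220, minus strand) and Tspan13 (chr12:36042479-36042628, minus strand), the tetraspanins that were higher in DKOITD, and of Cd63 (chr10:128909195-128909344, plus strand), the one with the largest deficit. Capitals mark the motif letters found.
Tmem176b to Tmem176a: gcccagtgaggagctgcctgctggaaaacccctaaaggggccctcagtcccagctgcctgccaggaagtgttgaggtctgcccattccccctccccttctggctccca
Tspan3: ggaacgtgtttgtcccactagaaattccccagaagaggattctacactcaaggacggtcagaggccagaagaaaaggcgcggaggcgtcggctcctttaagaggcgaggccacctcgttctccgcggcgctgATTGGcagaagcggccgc
Tspan13: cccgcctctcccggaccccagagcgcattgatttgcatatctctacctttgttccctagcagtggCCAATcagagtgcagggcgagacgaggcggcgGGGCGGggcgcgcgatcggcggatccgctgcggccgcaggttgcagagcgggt
Cd63: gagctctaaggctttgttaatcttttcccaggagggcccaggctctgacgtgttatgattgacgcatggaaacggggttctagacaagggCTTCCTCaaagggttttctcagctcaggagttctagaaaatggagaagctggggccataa

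All 10 genes matched the RefSeq promoter table, with 16 windows of 300 bases (250 before and 50 after a start). The letters searched on both strands were GAGGAAG, bound by PU.1, a factor of myeloid and B cells. GAAANNGAA stands for an interferon response element, TGANTCA for AP-1 and CACGTG for the E-box. CCAAT gives its box its name, TATAAA marks the TATA box and GGGCGG the GC box. GAGGAAG was found in 7 of the 16 windows, of Cd63, Cd37, Cd53, Cd82, Tmem176a and Tmem176b, and in 13.6% of all 32817 windows of that length. The 3 Tmem176 windows with it overlap and hold the same letters, 8 bases past the first Tmem176a start and outside the stretch printed. CCAAT was found in 4 windows, of Tspan3, Tspan13, Cd53 and Cd82 (37.4% of all windows), and GGGCGG in 6 (35.6%). CACGTG was found for Cd37 (7.15% of all windows), TATAAA for Cd81 (13.6%), GAAANNGAA for Cd9 (8.55%) and TGANTCA in none of the 16 (7.81%). A match is a description of letters and not of binding.

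Whole reads recovered from the RPKM ranged from 2825728 (DKOITD 2) to 23124435 (WT 1) per library. WT 2 stood apart: its correlations with the rest, across genes, had a median of 0.759, and those medians were 0.815 to 0.881 for the other 8. The targeted genes Ezh2 (1.54 to 18.1 RPKM in DKOITD, 2.05 to 12.4 RPKM in WT) and Runx1 (10.4 to 17.6 and 3.53 to 13.02 RPKM) were read in every library, and these levels cover the whole gene, not the floxed part. All 9 genes found of the 10 in the Mac1+ myeloid list were above 0 in each group, with Lyz2 the highest. Of these, Itgam, which encodes the sort marker, its partner Itgb2, Csf3r and Cybb were called lower in DKOITD than in WT (5.27% of all genes). None was called higher (7.43% of all genes). Itgam was at 27.0 ± 12.2 RPKM (SD, n = 4) against 111 ± 27.9 RPKM (SD, n = 3), a log2 difference of -2.11. The sample labels number DKOITD 1 to 3 between 228 and 274, and the remaining 6 between 385 and 393, so DKOITD 4 is the only DKOITD library in the series of its controls. What the numbers stand for is not stated. With a term for this number series, the lower calls of Itgam, Itgb2, Csf3r and Cybb ended. Scaled per recovered read, genes called lower fell from 573 to 247, a setting not followed for those named.

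Both genes of the Tmem176 pair were higher in DKOITD than in WT and ITD. Tmem176a (chromosome 6, 48840919 to 48847071 in mm10, GENCODE vM21) measured 415, 176, 358 and 209.5 RPKM across DKOITD 1 to 4, 5.52 and 52.7 RPKM for ITD 1 and 2, and 0, 0 and 5.55 RPKM in WT 1 to 3. Every DKOITD library lay above every other library, and ITD and WT overlapped. The group means were 289.8 ± 115 RPKM in DKOITD (SD, n = 4), 29.1 ± 33.4 RPKM in ITD (SD, n = 2), and WT had 1.85 ± 3.21 RPKM (SD, n = 3).

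Tmem176b (chromosome 6, 48833818 to 48841496) measured 352, 181, 371 and 209 RPKM across DKOITD, 32.9 and 84.0 RPKM for ITD, and 33.5, 0.647 and 5.56 RPKM in WT. DKOITD again lay above all other libraries, and WT 1 reached the level of ITD 1. The mean was 279 ± 97.1 RPKM in DKOITD (SD, n = 4) against 13.2 ± 17.7 RPKM in WT (SD, n = 3), which is 21.04 times as high. On the scale of log2(RPKM + 1) the fitted differences between DKOITD and WT were 7.19 ± 0.76 (SE) for Tmem176a and 5.21 ± 0.78 (SE) for Tmem176b. The former depends on the pseudocount of 1, since WT 1 and WT 2 are listed at 0, and became 9.47 with a pseudocount of 0.1.

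Within a library the pair stood at a near-equal level in all DKOITD libraries and in WT 3. The ratio of Tmem176a to Tmem176b was 1.18, 0.972, 0.966 and 1.001 in DKOITD 1 to 4, 0.168 and 0.628 in ITD, and 0, 0 and 0.998 in WT. WT 1 held 1285 recovered reads of Tmem176b and 0 of Tmem176a. WT 2 held 15 reads of Tmem176b and WT 3 held 132 with 72 of Tmem176a. A library of 100 cells amplified by PCR samples few molecules, and reads are not independent molecules, so these counts carry more error than counting alone gives. The gene models overlap by 578 bases on opposite strands and the library method does not mark strand, so reads from that stretch cannot be assigned with certainty.

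**Figure D1:**
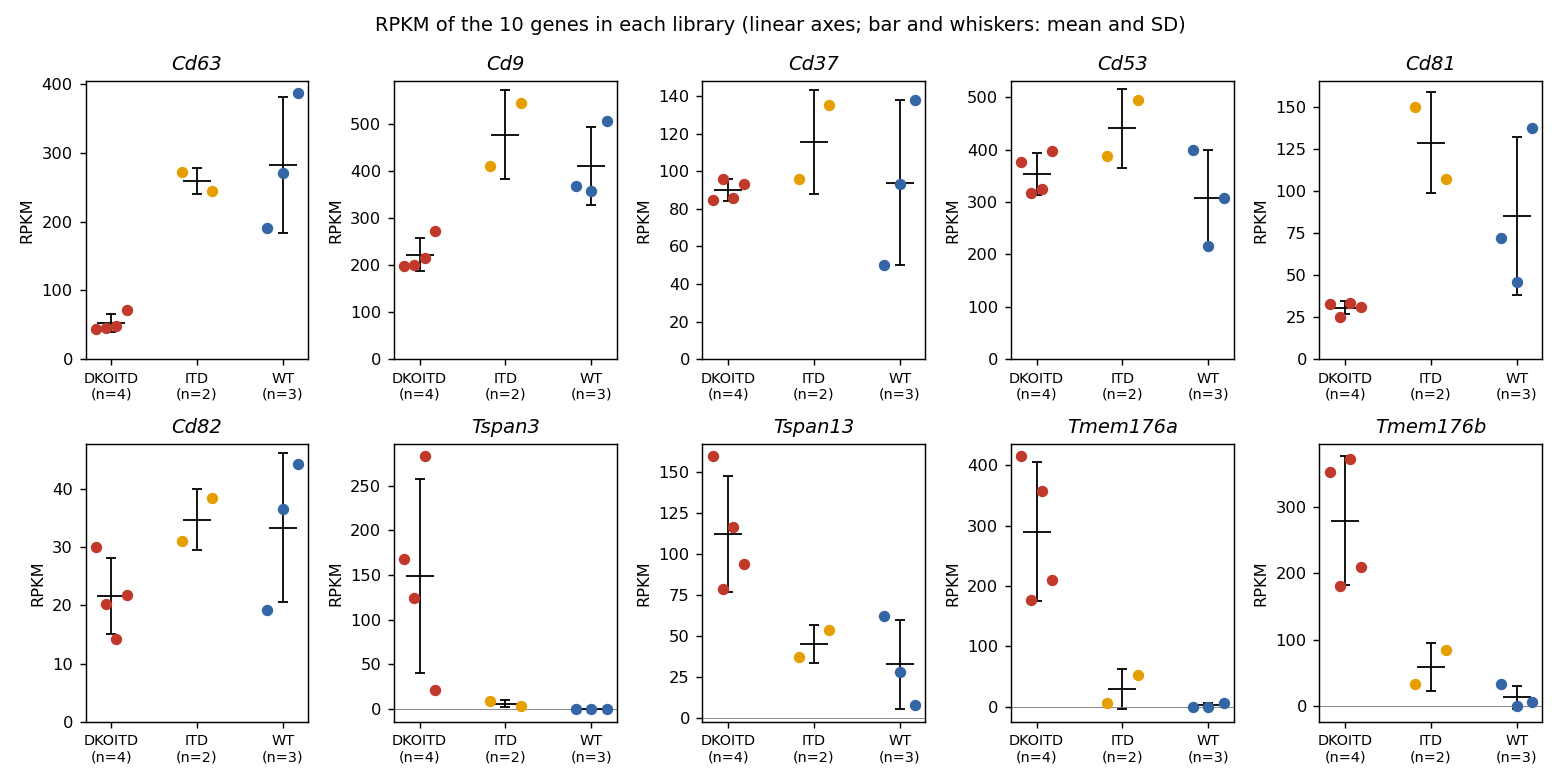
RPKM of each gene on the vertical axis (linear, from 0 or just below) by genotype group; points are libraries, the bar is the mean and the whiskers are 1 SD (n = 4, 2 and 3). All DKOITD points of Tmem176a, Tmem176b, Tspan3 and Tspan13 lie above the ITD and WT points, and all DKOITD points of Cd63, Cd9 and Cd81 lie below them.

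Tspan3 and Tspan13 were the tetraspanins with more RNA in DKOITD. Tspan3 (chromosome 9, 56131725 to 56165477), a widely expressed family member, measured 168, 125, 283 and 21.4 RPKM across DKOITD 1 to 4, 9.12 and 3.11 RPKM for ITD, and was listed at 0 in all 3 WT libraries. DKOITD 4 was the lowest of its group and still above both ITD libraries, and ITD in turn lay above WT. The mean in DKOITD was 149 ± 108 RPKM (SD, n = 4). With 3 reads in each WT library as the limit that a count of 0 allows, the DKOITD mean was at least 1100-fold above WT. The ITD mean was at least 46-fold above WT, both for counting error only. The limit for DKOITD was 790-fold without DKOITD 3 and 1400-fold without DKOITD 4. The limit for ITD was 23-fold without ITD 1 and 69-fold without ITD 2.

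Tspan13 (chromosome 12, 36014557 to 36042500), a family member with a shortened large loop, measured 159, 78.7, 116 and 94.0 RPKM across DKOITD, 37.1 and 53.4 RPKM for ITD, and 61.9, 28.2 and 8.08 RPKM in WT. The lowest DKOITD library stood above the highest WT library, and ITD lay within the range of WT. The mean was 112 ± 35.0 RPKM over DKOITD (SD, n = 4) against 32.7 ± 27.2 RPKM in WT (SD, n = 3), 3.42 times as high. The fitted log2 differences between DKOITD and WT were 6.75 ± 0.72 (SE) for Tspan3 and 2.10 ± 0.53 (SE) for Tspan13. That of Tspan3 depends on the pseudocount too.

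Cd63 had the largest deficit in DKOITD. Cd63 (chromosome 10, 128900989 to 128912822) measured 43.1, 45.5, 48.5 and 72.0 RPKM across DKOITD 1 to 4, 273 and 245 RPKM for ITD, and 190.0, 270.4 and 387 RPKM in WT. The highest DKOITD library was far below the lowest of the other 5. The mean was 52.3 ± 13.3 RPKM in DKOITD (SD, n = 4), 259 ± 19.5 RPKM in ITD (SD, n = 2), and WT had 282 ± 99.1 RPKM (SD, n = 3), so WT was 5.40 times and ITD 4.95 times as high as DKOITD.

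Cd81 and Cd9, partners of integrins and of each other at the cell surface, were also lower. Cd81 (chromosome 7, 143052739 to 143067934) measured 32.8, 24.9, 33.5 and 31.0 RPKM across DKOITD, 149.6 and 107 RPKM for ITD, and 72.1, 45.6 and 137 RPKM in WT. DKOITD was the most even group, at 30.5 ± 3.92 RPKM (SD, n = 4), while WT was spread widely at 85.0 ± 47.1 RPKM (SD, n = 3). Cd9 (chromosome 6, 125460266 to 125494791) measured 198, 199.6, 214 and 272 RPKM across DKOITD, 410.1 and 544 RPKM for ITD, and 367, 357 and 506 RPKM in WT. No DKOITD library reached the lowest of the other 5 libraries for either gene.

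The fitted log2 differences between DKOITD and WT were -2.38 ± 0.30 (SE) for Cd63, -1.31 ± 0.36 (SE) for Cd81 and -0.88 ± 0.25 (SE) for Cd9. These sizes rest on the scaling of the deposited columns, which differs between groups: the RPKM denominator was 1.13 to 1.44 times the recovered reads in DKOITD and 0.703 to 0.919 times in the others. Scaled per recovered read, the median log2 difference of all genes moved from 0.17 to 0.74, Cd63 stood at -1.62, Cd81 at -0.56 and Cd9 at -0.12. On that scale Cd63 still separated the groups (58.8 to 81.1 in DKOITD, 154 to 304 in WT), whereas Cd9 and Cd81 overlapped. Quantile normalization instead put the median of all genes at -0.03, Cd63 at -2.38, Cd81 at -1.35 and Cd9 at -0.84. The scalings thus differ in what they show for Cd81 and Cd9, and which of them suits these libraries was not tested.

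Cd53, Cd37 and Cd82 overlapped between DKOITD and WT. Cd53 (chromosome 3, 106759921 to 106790149), a tetraspanin of all leukocytes, measured 377, 316, 324 and 397 RPKM across DKOITD, 387 and 494 RPKM for ITD, and 399.5, 215 and 308 RPKM in WT. Cd37 (chromosome 7, 45233632 to 45239115), best known from B cells, measured 84.9, 96.2, 85.7 and 93.5 RPKM across DKOITD, 96.1 and 135 RPKM for ITD, and 50.1, 93.4 and 138 RPKM in WT. Cd82 (chromosome 2, 93419111 to 93463140), a regulator of adhesion, measured 30.02, 20.3, 14.2 and 21.8 RPKM across DKOITD, 31.0 and 38.5 RPKM for ITD, and 19.2, 36.6 and 44.2 RPKM in WT. Both leukocyte genes were steady in DKOITD, where the SD was 6.25% of the mean for Cd37 and 11.3% for Cd53, against 46.9% and 29.9% in WT.

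The fitted log2 differences between DKOITD and WT were 0.24 ± 0.27 (SE) for Cd53, 0.05 ± 0.34 (SE) for Cd37 and -0.57 ± 0.38 (SE) for Cd82. Scaled per recovered read they became 1.004, 0.81 and 0.17, so that Cd82 changed sign and Cd53 alone of these passed the threshold, and without WT 1 Cd37 stood at -0.33. An SE of this size does not show that the levels were equal.

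**Figure D2:**
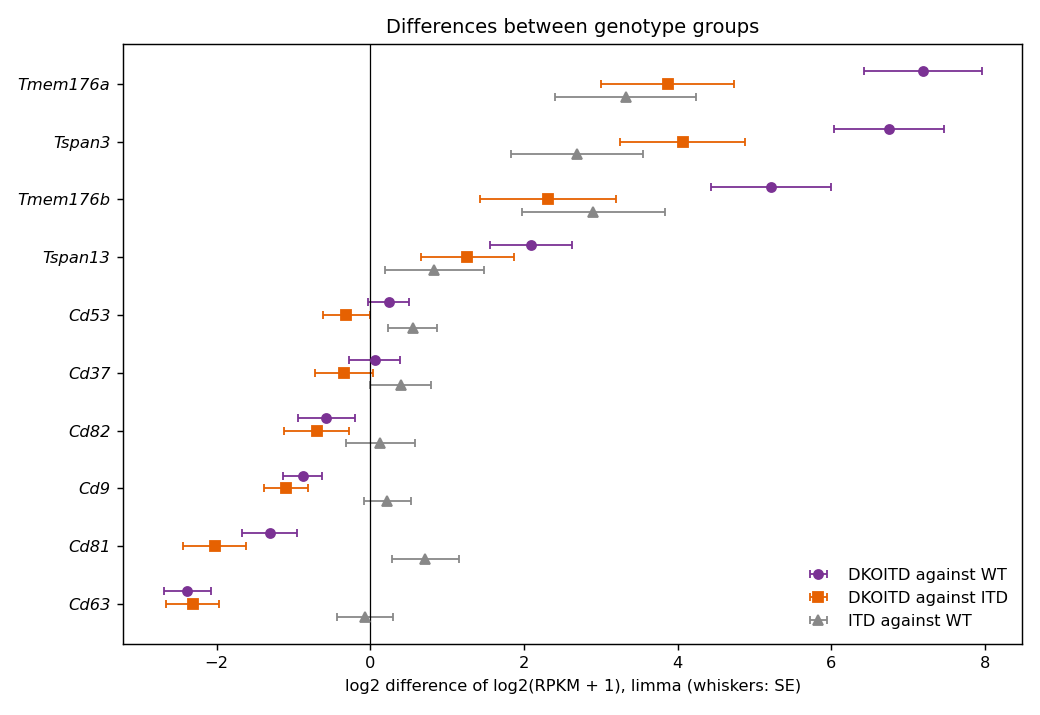
Differences between groups on the log2(RPKM + 1) scale (horizontal axis) for each gene, with the SE as whiskers. The points for DKOITD against WT run from -2.38 (Cd63) to 7.19 (Tmem176a), and the points for ITD against WT are nearest to 0 for Cd63, at -0.07.

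In the fit over all genes, 7 of the 10 were past the threshold between DKOITD and WT (limma, Benjamini-Hochberg adjusted p under 0.05), beside 12.7% of all genes tested. The 4 higher were Tmem176a, Tmem176b, Tspan3 and Tspan13, beside 7.43% of all genes called higher, and the 3 lower were Cd63, Cd81 and Cd9, beside 5.27% called lower. Scaled per recovered read, 5 were higher and 1 lower, since Cd9 and Cd81 no longer passed and Cd53 did. The same 4 and 3 genes separated the groups without overlap, as 14.1% of all genes did upward and 10.9% downward. The median log2 difference was 0.15 over the 10 genes and 0.17 over all genes tested. Because the genes were picked knowing these levels, nothing is read from the counts. Cd9 and Cd81 each fell short of the threshold in 8 of the 9 fits without 1 library, Cd9 holding only without DKOITD 4 and Cd81 only without WT 2. Tspan13 fell short without DKOITD 1, DKOITD 3 or WT 2. Without the filter on low values all of Cd9, Cd81 and Tspan13 fell short, and with only the groups compared Cd9 and Cd81 did.

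Between DKOITD and ITD, which share the Flt3 allele, only Cd63 was past the threshold, at a log2 difference of -2.31 ± 0.35 (SE), where 0.0552% of all genes were called lower, 0.156% higher and 0.212% in all. The call ended without DKOITD 1, DKOITD 3, ITD 1 or ITD 2, and without the filter on low values. Differences not past it were 4.06 ± 0.81 for Tspan3, 3.87 ± 0.87 for Tmem176a, 2.31 ± 0.88 for Tmem176b, 1.26 ± 0.61 for Tspan13, -2.03 ± 0.41 for Cd81 and -1.10 ± 0.29 for Cd9 (each with its SE). The groups did not overlap for 4 genes upward (17.3% of all genes) and 4 downward (14% of all genes), the fourth of the latter being Cd82. The same DKOITD libraries enter both comparisons, so their sizes are not independent.

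None of the 10 was past the threshold between ITD and WT, where 0.0092% of all genes was called, and 862 of all genes had an unadjusted p under 0.05. Tspan3 alone did not overlap, upward, beside 10.1% of all genes upward and 8.99% downward. The largest fitted differences were 3.32 ± 0.91 for Tmem176a, 2.90 ± 0.93 for Tmem176b and 2.69 ± 0.86 for Tspan3 (SE), and the others lay between -0.07 (Cd63) and 0.83 (Tspan13). ITD 2 exceeded ITD 1 for both Tmem176 genes, and ITD 1 exceeded ITD 2 for Tspan3, so the pair and Tspan3 did not follow each other there.

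Among DKOITD libraries, number 4 was the nearest to the controls for Cd63, Cd9 and Tspan3 but not for the Tmem176 pair, where DKOITD 2 was lower. With a term for the series of label numbers, which leaves DKOITD 4 to carry the comparison with WT, the log2 differences were 6.81 for Tmem176a, 4.87 for Tmem176b, 4.49 for Tspan3, 1.89 for Tspan13, -1.28 for Cd81, -0.57 for Cd9 and -1.90 for Cd63. They kept their signs and none was past the threshold. Number series and genotype cannot be told apart for DKOITD 1 to 3.

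**Figure D3:**
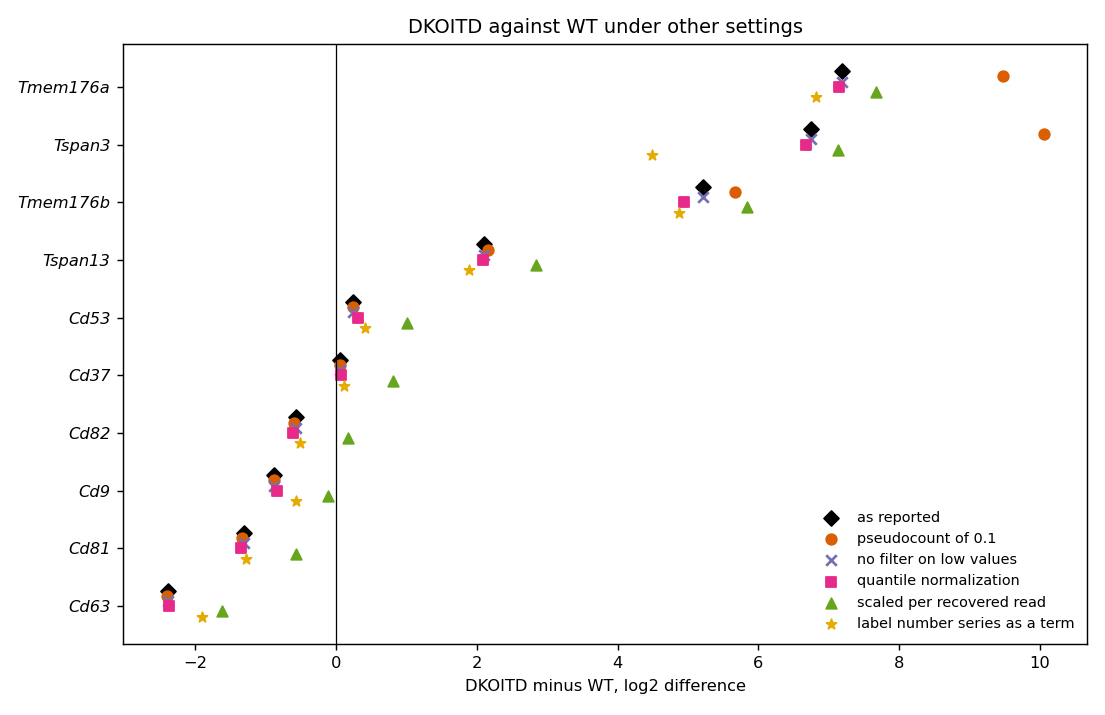
DKOITD minus WT on the log2 scale (horizontal axis) for each gene under 6 settings, marked by symbol. Tmem176a, Tspan3, Tmem176b and Tspan13 stay to the right of 0 and Cd63 to the left under all of those drawn, while Cd82 crosses 0 when scaled per recovered read.

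Levels per length can be set against each other between genes. In WT the order of mean RPKM was Cd9, Cd53, Cd63, Cd37, Cd81, Cd82, Tspan13, Tmem176b, Tmem176a and Tspan3. In DKOITD it was Cd53, Tmem176a, Tmem176b, Cd9, Tspan3, Tspan13, Cd37, Cd63, Cd81 and Cd82. Tmem176a ranked 193 and Tmem176b 200 among 23420 symbols by mean RPKM in DKOITD, from 8248 and 3600 in WT, and Cd63 ranked 1200 in DKOITD and 202 in WT. Neighbours in these orders often did not differ beyond their spread, such as Cd37 (93.9 ± 44.0 RPKM) and Cd81 (85.0 ± 47.1 RPKM) in WT (SD, n = 3), or Tmem176a and Tmem176b in DKOITD.

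Over all 31 tetraspanins in the table, the summed level was 1202 ± 117 RPKM in DKOITD (SD, n = 4), 1676 ± 147 RPKM in ITD (SD, n = 2), and WT had 1395 ± 285 RPKM (SD, n = 3). That order rests on the scaling: per recovered read the sums were 1577 ± 283, 1481 ± 52.7 and 1073 ± 260 (SD, same n), with DKOITD above WT. Shares within a library, in contrast, do not depend on how libraries were scaled. The 8 members made up between 85.0% and 86.1% of it in DKOITD and between 88.6% and 91.0% in the other libraries. Cd63 made up 3.39, 4.33, 3.68 and 6.15% in DKOITD, 17.3 and 13.8% in ITD, and 14.8, 22.9 and 22.5% in WT. Cd9 made up between 15.6% and 23.3% in DKOITD and between 26.1% and 30.5% in the others, so its share was lower without overlap although its level per recovered read was not. The shares of a library sum to a fixed total, so larger shares of Tspan3 and Tspan13 by themselves lower those of Cd9 and Cd81. How much of the lower shares follows from that was not tested.

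Cd81 made up 2.36 to 2.65% of the sum in DKOITD and 3.86 to 9.52% in the others, also without overlap. Tspan3 took up 13.2, 11.8, 21.5 and 1.83% in DKOITD and at most 0.580% elsewhere. Tspan13 took up between 7.48% and 12.5% in DKOITD and between 0.470% and 4.82% elsewhere. Cd53 was the largest or the next largest share in every library but WT 2 and WT 3, where Cd9 and Cd63 exceeded it. The ratio of Tspan13 to Cd63 was above 1 in every DKOITD library (3.69, 1.73, 2.399 and 1.31) and at most 0.326 in ITD and WT. Both genes were paired with their levels in these libraries known, so the ratio only restates those levels.

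**Figure D4:**
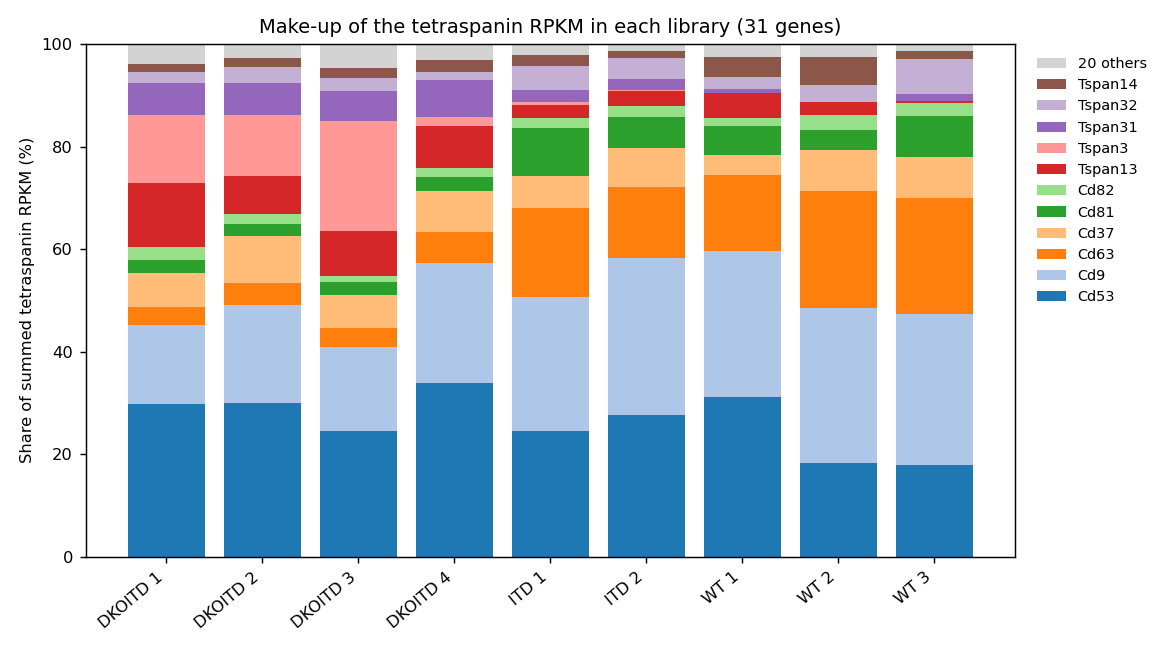
Share of the summed tetraspanin RPKM (vertical axis, %) taken by each gene in each library (31 genes, 20 of them pooled as others). Cd63 takes 3.39 to 6.15% in DKOITD and 13.8 to 22.9% in ITD and WT, while Tspan3 and Tspan13 take more in DKOITD.

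Of the 23 tetraspanins outside the panel, 12 were tested, 5 were listed at 0 in every library, and between DKOITD and WT 2 rose and 0 fell (limma, adjusted p under 0.05), beside 7.43% and 5.27% of all genes. Tspan31, a family member with no settled role in blood cells, measured 80.6, 65.6, 77.3 and 85.3 RPKM across DKOITD, 38.1 and 39.3 RPKM for ITD, and 11.8, 1.89 and 24.2 RPKM in WT. The groups followed in that order without overlap, and it rose by 2.99 ± 0.57 on the log2 scale (SE; limma, adjusted p = 0.00771). Tspan17, of the subfamily that escorts the protease Adam10 to the surface, measured 10.5, 15.8, 28.8 and 14.8 RPKM across DKOITD, 4.66 and 1.70 RPKM for ITD, and 7.07, 0 and 0.887 RPKM in the WT libraries. It rose by 2.81 ± 0.67 (SE; limma, adjusted p = 0.0215), a call that ended without DKOITD 3 or WT 2 and without the filter on low values. The median log2 difference of the 12 was 0.56, beside 0.17 for all genes. With a term for the series of label numbers, both calls ended, as did every call named for the partners, endosome genes and Ms4a relatives below.

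None of the 12 passed against ITD or between ITD and WT. Tspan14, of the same subfamily as Tspan17, measured 16.8 to 27.9 RPKM in DKOITD and 26.5 to 65.5 RPKM in WT. Its difference of -0.94 ± 0.38 (SE; limma, adjusted p = 0.116) did not pass. Tspan32, a leukocyte tetraspanin, measured 17.6 to 34.2 RPKM across DKOITD, 72.5 and 73.4 RPKM for ITD, and 29.3 to 116 RPKM in WT (difference from WT -0.87 ± 0.44, SE; limma, adjusted p = 0.205).

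Among 22 listed partners of tetraspanins, 16 were tested, 3 rose and 1 fell between DKOITD and WT, beside 7.43% and 5.27% of all genes, with a median log2 difference of 0.50 (0.17 for all genes). The peptidase Dpp4 rose by 4.14 ± 0.56 (SE; limma, adjusted p = 0.00188), the adhesion ligand Icam1 by 3.40 ± 0.59 (SE; adjusted p = 0.00539) and the integrin chain Itgb7 by 1.82 ± 0.35 (SE; adjusted p = 0.00849). The hyaluronan receptor Cd44 fell by 1.41 ± 0.34 (SE; limma, adjusted p = 0.0229), a call that ended scaled per recovered read, without the filter on low values, and without DKOITD 1, DKOITD 3, WT 1 or WT 2. Adam10 (0.11 ± 0.31, SE; adjusted p = 0.844) and Igsf8, the direct partner of Cd9 and Cd81 (-0.10 ± 0.44, SE; adjusted p = 0.906), did not pass.

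Of 21 genes of endosomes and exosomes, the vesicles that Cd63, Cd9 and Cd81 are used to mark, 19 were tested, 0 rose and 4 fell, beside 7.43% and 5.27% of all genes, with a median log2 difference of -0.33 (0.17 for all genes). Flot2, a scaffold of membrane rafts, fell by 1.68 ± 0.35 (SE; limma, adjusted p = 0.0115), its relative Flot1 by 1.17 ± 0.32 (SE; adjusted p = 0.0354), Rab27a, which docks secretory vesicles, by 1.55 ± 0.36 (SE; adjusted p = 0.0178) and Unc13d, a partner of Rab27a in degranulation, by 2.06 ± 0.50 (SE; adjusted p = 0.023). Scaled per recovered read the calls of Flot1, Flot2 and Rab27a ended, and without the filter on low values those of Flot1 and Unc13d. That of Flot1 also ended with only the groups compared. Without a single library, Flot1 kept its call only when WT 1 was left out, Rab27a lost it without DKOITD 1 or DKOITD 3, and Unc13d without DKOITD 1 or WT 2. The ESCRT gene Tsg101 (0.82 ± 0.46), Sdcbp (0.48 ± 0.28), which encodes syntenin, a binder of Cd63, and the lysosomal membrane gene Lamp1 (0.26 ± 0.28) did not pass (SE; limma, adjusted p = 0.254, 0.255 and 0.553).

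Of the Ms4a relatives of the Tmem176 pair, 14 of 15 were in the table and 8 were tested, of which 4 rose and 0 fell, beside 7.43% and 5.27% of all genes, with a median log2 difference of 1.58 (0.17 for all genes). Ms4a6b rose by 3.05 ± 0.46 (SE; limma, adjusted p = 0.00333), Ms4a4c by 2.397 ± 0.69 (SE; adjusted p = 0.0404) and Ms4a6c by 1.73 ± 0.29 (SE; adjusted p = 0.00456), and the fourth was Ms4a6d. Ms4a6b measured 455, 154, 344 and 283 RPKM across DKOITD, 163 and 241 RPKM for ITD, and 63.9, 16.0 and 37.4 RPKM in WT. The call of Ms4a4c, whose groups overlapped, ended in 7 of the 9 fits without 1 library, holding only without DKOITD 2 or WT 1. That of Ms4a6d ended in 7 of the 9, holding only without WT 2 or WT 3. Both calls also ended without the filter on low values and with only the groups compared, and that of Ms4a4c with a pseudocount of 0.1. Their sequences are alike, so reads of close copies may be divided among them.

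Markers of cell types moved with these genes. In bulk RNA, fewer cells of a type and less RNA per cell cannot be told apart. With a term for the series of label numbers, every call of a marker lower in DKOITD than in WT ended. Most calls of a higher marker ended too. Of 18 dendritic markers 17 were tested and 16 were called higher in DKOITD than in WT (7.43% of all genes). Their summed level was 39589, 9891, 37580 and 37893 RPKM across DKOITD, 4401 and 11766 RPKM for ITD, and 1292, 196 and 80.6 RPKM in WT, and Zbtb46, Ccr7 and Xcr1 were at 0 in all ITD and WT libraries. DKOITD 2 was the lowest of its group in this sum and in both Tmem176 genes, and ITD 2 was above ITD 1 in all of them. In the sum DKOITD 2 lay below ITD 2, whereas in both Tmem176 genes it lay above. DKOITD 4 was close to DKOITD 1 and 3 in the sum. Its Tmem176a (209.5 RPKM) and Tmem176b (209 RPKM) were nearer to those of DKOITD 2 (176 and 181 RPKM). Within WT, the sum and Tmem176b were highest in WT 1, where Tmem176a was at 0, and Tmem176a was highest in WT 3. The part of the dendritic markers in the levels of the Tmem176 pair, Tspan3 and Tspan13 was not tested.

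Of 15 neutrophil markers 13 were in the table and tested, and 12 were called lower (5.27% of all genes). Their sum was 35517 to 266271 RPKM across DKOITD, 683236 and 729561 RPKM for ITD, and 880655 to 1194180 RPKM in WT, and their part in the levels of Cd63, Cd81 and Cd9 was not tested. The 11 primary granule markers are of the compartment that holds Cd63 in neutrophils. They summed to 895 to 3420 RPKM in DKOITD and 729 to 6975 RPKM in WT, with Bpi at 0 throughout. Of 10 tested, 1 was called higher and 2 lower, beside 7.43% and 5.27% of all genes. Platelets are rich in Cd9, and their markers summed to 0.953 to 10.1 RPKM in DKOITD and 5.44 to 116 RPKM in WT. Most of the latter value was Pf4 in WT 1 (101 RPKM), and Ppbp, Gp5 and Gp6 were at 0 in every group.

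B cells are rich in Cd37, Cd53 and Cd81, and B lineage markers summed to 55.9 to 95.8 RPKM in DKOITD and 5.25 to 17.5 RPKM in WT. Pax5, Vpreb3 and Igll1 were at 0 in every library and Cd79b was the highest. Of 4 B lineage markers tested 1 was called higher (7.43% of all genes). Monocyte and macrophage sums overlapped, at 2576 to 3750 RPKM in DKOITD and 2612 to 3424 RPKM in WT. Of 12 tested markers 4 were called higher (7.43% of all genes). Plasmacytoid dendritic markers summed to 67.2 to 289 RPKM in DKOITD and 14.0 to 43.1 RPKM in WT. Bst2 was the highest in each group, with a mean of 128 RPKM in DKOITD and 13.3 RPKM in WT, so it made up most of the DKOITD sum. Siglech was at 0 in ITD, WT and DKOITD 2 and at most 5.81 RPKM in DKOITD, and Pacsin1 and Klk1 were at 0 in every library. Of 6 tested, 3 were called higher (7.43% of all genes). T and NK markers (0.670 to 20.7 RPKM in any library) and markers of mast cells, basophils and eosinophils (0 to 3.31 RPKM) stayed low throughout. Erythroid markers were uneven within groups, with sums of 17217, 5473 and 20.2 RPKM in WT 1 to 3 and 0.0468 and 2848 RPKM in ITD 1 and 2. They reached at most 9.50 RPKM in DKOITD. Of 5 tested, 0 were called higher and 1 lower in DKOITD than in WT, beside 7.43% and 5.27% of all genes.

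**Figure D5:**
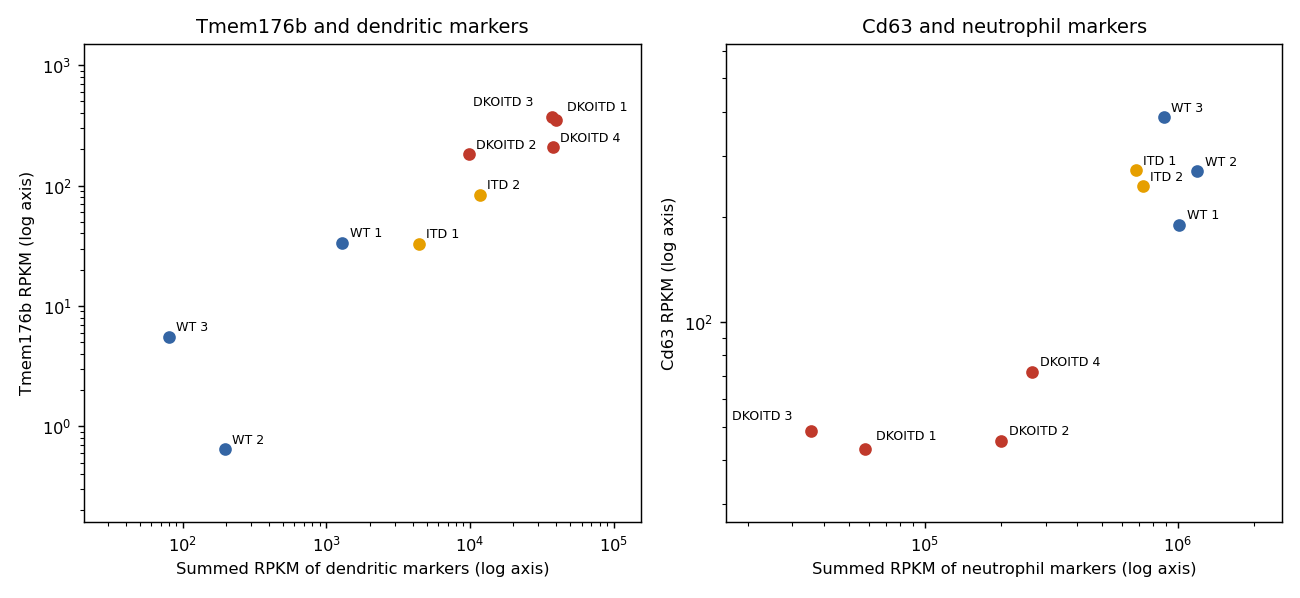
Left, RPKM of Tmem176b (log axis) against the summed RPKM of 18 dendritic markers (log axis); right, RPKM of Cd63 against the summed RPKM of 13 neutrophil markers (both log axes); each point is a library, coloured by genotype. DKOITD libraries are highest in Tmem176b (181 to 371 RPKM) and lowest in both Cd63 (43.1 to 72.0 RPKM) and neutrophil markers.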

How the data were processed

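Per the labels' protocols, Smart-seq2, which reads whole transcripts and marks no strand, was run on 9 samples of 100 sorted cells. The authors deposited RPKM per gene symbol, with a column for each library. The submitters' processing notes list STAR 2.4.2a, SAMtools 1.1, HTSeq 0.6.1p1 and mm10 without roles. Annotation and scaling: not given in the sources used here. Groups came from the sample titles.

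Reads were recovered from the deposited RPKM: the denominator of each column was the commonest step over GENCODE vM21 exon lengths, and each gene took the shortest length from 20 to 30000 bases giving whole reads within 0.0001 (15564 of 15566 genes above 0). They serve for depth and 1 scaling alternative.

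The 10868 genes reaching 1 RPKM in 2 or more libraries were fitted as log2(RPKM + 1) in limma 3.58.1 (R 4.3.3, trended eBayes). The fit took the 3 genotypes together, two-sided, with Benjamini-Hochberg adjustment over all genes and a threshold of 0.05. The test was tried on simulated data first. Fold changes of low genes are understated on this scale. Alternatives were a pseudocount of 0.1, no filter, quantile normalization, scaling per recovered read, only the groups compared, the label number series, the replicate block and each library left out. The tetraspanin sum per recovered read and the Tspan3 limits without a library were added after seeing the data. The 10 genes, the lists and the motifs were chosen with earlier results of these data known. Named in the text are the 10 genes, other tetraspanins past the threshold, up to 3 genes past it of each related list, and marker genes at 0 or highest. Outside that rule, Itgam, Itgb2, Csf3r and Cybb are named as the Mac1+ myeloid markers called lower. Tspan14, Tspan32, Adam10, Igsf8, Tsg101, Sdcbp, Lamp1, Ms4a6d, Flot1 as the fourth of its list, and Upk1b were added after their values were seen. Gene positions are from GENCODE vM21 (mm10), matched by symbol, and promoter sequences from RefSeq (GRCm38.p6).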

Additional observations from a re-analysis of the deposited data

How the results depend on the processing

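Of 480 member differences under other settings, 459 moved by less than 1 SD of the libraries, taking the larger SD of the groups compared. The other 21 moved by more, and no called one changed sign. Part of the 459 could not move, so that count is not a measure of stability. Fits without the filter, with only the groups compared or without a library of the third group return the same log2 difference. So does the number series between ITD and WT. Members past the threshold between DKOITD and WT, 7 as reported, were 4 without a filter on low values, 6 scaled per recovered read (5 higher and 1 lower), 0 once the series of label numbers was a term, and 4 to 6 without 1 library. Between DKOITD and ITD, 1 as reported, they were 0 without a filter, 3 scaled per recovered read, 2 with only the groups compared, 0 with the number series and 0 to 2 without 1 library. Between ITD and WT they were 0 throughout. All genes called between DKOITD and WT, 1380 as reported, were 733 without a filter, 2772 scaled per recovered read (2525 higher and 247 lower, against 807 and 573), 4 with the number series and 537 to 1955 without 1 library, with 537 without DKOITD 3, 606 without DKOITD 1 and 762 without WT 2 (quantile normalization gave 678 higher and 767 lower). Between DKOITD and ITD, 23 as reported, they were 42 under quantile normalization, 274 scaled per recovered read, 46 with only the groups compared, 0 with the number series (limma; 480 at an unadjusted p under 0.05) and 0 to 157 without 1 library. Between ITD and WT, 1 as reported, they were 2 with a pseudocount of 0.1, 3 without a filter, 0 with only the groups compared and 0 to 47 without 1 library. The cause of these moves was not tested, beyond more genes or fewer libraries entering a fit.

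Replicate numbers are shared between groups, but same-numbered libraries did not deviate together (correlations of deviations from -0.0444 to 0.0707). With the replicate block, 884 genes passed between DKOITD and WT, 57 between DKOITD and ITD and 0 between ITD and WT, and members past the threshold were 5, 2 and 0.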

Other observations

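The genes most alike to members in their pattern over the 9 libraries were named by Pearson's r of log2(RPKM + 1), as a description without a p, since genotype and shared libraries shape every such value. For Tmem176a they were Cysltr1, the leukotriene receptor (0.987), Herpud1 (0.983) and Pdia6 (0.980), the latter pair of protein folding in the endoplasmic reticulum. Herpud1 measured 109 to 172 RPKM in DKOITD and 27.8 to 72.7 RPKM in the other libraries. For Tmem176b they were the leukocyte surface gene Cd48 (0.993), Bmyc (0.987) and Sumf1 (0.982), so the lists of the paired genes shared no member. For Tspan3 they were Ank (0.976), 2810021J22Rik (0.973) and Cd34 (0.967), the progenitor marker, which measured 4.63 to 11.6 RPKM in DKOITD and 0 to 1.54 RPKM elsewhere. For Cd63 they were Vti1a, of vesicle fusion (0.988), Chac1 (0.984) and the hexokinase Hk3 (0.982).

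Upk1b, a tetraspanin best known from the lining of the bladder, was listed at 21.1, 0, 5.59 and 6.94 RPKM in DKOITD 1 to 4 and at 0 in all ITD and WT libraries. Its difference from WT did not pass the threshold (2.54 ± 0.80, SE; limma, adjusted p = 0.0573) and depends on the pseudocount.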
